A study of Mus musculus with 12 samples.

Results

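The 33 genes described here are enzymes of glycolysis and of the fates of pyruvate and glycogen, together with genes of the hypoxia response. They were chosen by gene name from a list drawn up with earlier results of these data known, and all 33 were found among the 47729 genes of the deposited expression table. Levels are in FPKM, fragments per kilobase of transcript scaled to an effective size of each library, which is not its plain read number. A gene was tested where it reached 1 FPKM in at least 2 libraries, which 30 of the 33 genes and 13981 genes in all did. Eno2, P4ha2 and Pfkfb4 did not pass and are given by their levels only.

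The cells were mouse embryonic stem cells of the line E14Tg2a, from strain 129/Ola. WT cells were unedited, and delta 0.7 cells, called delta here, lacked on both alleles a regulatory region of Tcf15, a transcription factor gene. Both were kept in serum-free medium with 2i and LIF (0 h), then moved to fibronectin-coated plates in N2B27 medium with Activin, bFGF and KOSR for 12 or 24 h, which starts their differentiation. Each of the 6 groups had 2 libraries of poly(A)-selected RNA. The column names carry 1 clone name for all delta libraries, so genotype and clone cannot be told apart. The labels do not say that replicates were separate cultures, so the p-values cover only the variation among these libraries and that variation may be technical.

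Glycolysis splits glucose into pyruvate, first spending and then regaining ATP, and lactate dehydrogenase turns pyruvate into lactate while the pyruvate dehydrogenase complex sends it to the mitochondria. Hypoxia-inducible factor (HIF) is a dimer whose alpha subunit, Hif1a or Epas1, is hydroxylated by the Egln enzymes and degraded when oxygen is plentiful. Many glycolytic genes are HIF targets, and naive and primed pluripotent cells are known to differ in how far they rely on glycolysis.

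Recovered depth ran from 9740851 to 17571255 reads per library, of which the 33 genes took 0.913 to 1.77%. Tcf15 was at 3.45 to 99.4 FPKM in WT libraries and at 1.04 to 4.44 in delta libraries. The pluripotency gene Pou5f1 was expressed in every library. Ribosomal protein genes took 11.5% and 13.5% of reads in the 0 h libraries of replicate 1 (WT and delta) and 5.75 to 7.52% in the others. The summed level of 9 fibroblast markers was 21.7, 49.0 and 43.3 FPKM in the WT libraries of replicate 1 and 1.89 to 7.01 FPKM elsewhere. Tagln, Acta2, Col1a1, Col1a2 and Col3a1 were each higher in those WT libraries than in any other. Thy1 overlapped with the others, and Dcn was highest in delta 24 h replicate 1 (1.40 FPKM). Postn stayed at or below 0.0661 and Lum at or below 0.285. The share of reads from mitochondrial genes was 0.447 to 0.647% in replicate 1 and 1.80 to 2.87% in replicate 2. Genes like ribosomal RNA took 7.72% of reads in delta 0 h replicate 1 and 0.208 to 3.14% in the others, and its effective library size was 75.5% of its reads, against 92.2 to 107% in the others. The summed level of 4 trophoblast markers was 2.59 to 8.72 FPKM in the 0 h libraries and 0.211 to 1.32 FPKM in the later ones. This fall was that of Cdx2 alone, at 2.47 to 8.39 FPKM at 0 h and at most 0.381 later. Elf5 stayed at or below 0.119 and Krt7 at or below 0.371, while Gata3 reached 0.193 at 0 h and 1.06 later. The part of these library differences in the results below was not tested. In bulk RNA, fewer cells of a type and less RNA per cell cannot be told apart.

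HIF binds DNA at a core of ACGTG or GCGTG, so the promoters of 4 called HIF-target genes are printed, with Bnip3 and Ldha added after their values were seen. Called genes were printed only where a window held a match, so the presence of matches in the printed windows was fixed by that choice. The windows are RefSeq promoters (build GRCm38.p6, 250 bases before to 50 after the start site, each on the strand of its gene), and capitals mark ACGTG or GCGTG on either strand, so that CACGT and CACGC are the reverse readings. CACGTG holds the core on both strands and counts as 2 matches. Aldoa is at chr7:126799205-126799504 on the minus strand, Aldoc at chr11:78322823-78323122 on the plus strand, Ankrd37 at chr8:45999801-46000100 on the minus strand, P4ha1 at chr10:59323046-59323345 on the plus strand, Bnip3 at chr7:138909457-138909756 on the minus strand and Ldha at chr7:46845554-46845853 on the plus strand.
Aldoa: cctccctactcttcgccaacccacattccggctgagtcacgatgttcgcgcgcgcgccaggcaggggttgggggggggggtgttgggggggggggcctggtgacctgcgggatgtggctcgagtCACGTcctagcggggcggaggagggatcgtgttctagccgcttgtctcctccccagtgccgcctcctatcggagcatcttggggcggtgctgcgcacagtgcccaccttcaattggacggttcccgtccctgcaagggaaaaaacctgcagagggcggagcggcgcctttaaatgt
Aldoc: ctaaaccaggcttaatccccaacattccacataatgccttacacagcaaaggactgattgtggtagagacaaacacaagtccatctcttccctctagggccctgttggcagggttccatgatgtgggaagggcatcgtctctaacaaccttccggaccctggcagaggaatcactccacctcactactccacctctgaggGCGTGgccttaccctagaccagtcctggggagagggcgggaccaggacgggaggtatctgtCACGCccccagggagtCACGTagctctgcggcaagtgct
Ankrd37: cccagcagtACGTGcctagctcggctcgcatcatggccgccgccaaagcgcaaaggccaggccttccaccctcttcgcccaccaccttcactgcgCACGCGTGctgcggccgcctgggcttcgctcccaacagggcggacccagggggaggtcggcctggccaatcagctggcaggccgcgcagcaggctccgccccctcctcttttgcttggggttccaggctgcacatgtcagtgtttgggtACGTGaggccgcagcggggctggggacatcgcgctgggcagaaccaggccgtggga
Bnip3: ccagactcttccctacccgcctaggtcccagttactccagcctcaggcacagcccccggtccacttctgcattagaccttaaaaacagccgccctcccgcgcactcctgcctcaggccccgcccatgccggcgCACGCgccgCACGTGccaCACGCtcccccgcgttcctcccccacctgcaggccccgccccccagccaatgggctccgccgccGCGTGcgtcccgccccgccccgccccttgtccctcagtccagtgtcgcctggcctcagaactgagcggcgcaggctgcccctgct
Ldha: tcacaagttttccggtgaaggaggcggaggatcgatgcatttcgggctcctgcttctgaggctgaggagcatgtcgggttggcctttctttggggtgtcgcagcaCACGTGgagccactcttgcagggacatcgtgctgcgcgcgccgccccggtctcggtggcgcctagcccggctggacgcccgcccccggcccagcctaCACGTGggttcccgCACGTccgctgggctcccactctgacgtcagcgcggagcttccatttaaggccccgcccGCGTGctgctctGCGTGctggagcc
P4ha1: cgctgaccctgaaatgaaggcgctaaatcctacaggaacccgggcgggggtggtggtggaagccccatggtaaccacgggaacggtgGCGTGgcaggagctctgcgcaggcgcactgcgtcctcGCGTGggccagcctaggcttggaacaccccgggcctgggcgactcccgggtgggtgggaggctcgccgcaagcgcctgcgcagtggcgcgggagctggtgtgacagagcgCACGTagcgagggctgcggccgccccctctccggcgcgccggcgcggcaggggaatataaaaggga
The windows held 1 match in Aldoa, 3 in Aldoc, 4 in Ankrd37, 3 in P4ha1, 5 in Bnip3 and 7 in Ldha. Further windows of these genes, not printed, held 1 and 0 matches in Aldoa, 1 in Aldoc and 2 in Ldha. Of the 33 genes, 32 had a RefSeq window (Ndrg1 is named only), and 27 of these 32 (84.4%) had a match in at least 1 window, against 46.7% of 27025 genes. By window the shares were 35 of 46 (76.1%) and 43.8% of 32851. Tpi1, Gpi1, Gys1, Gbe1 and Eno2 had none. A match describes letters, not a bound site.

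**Figure D1:**
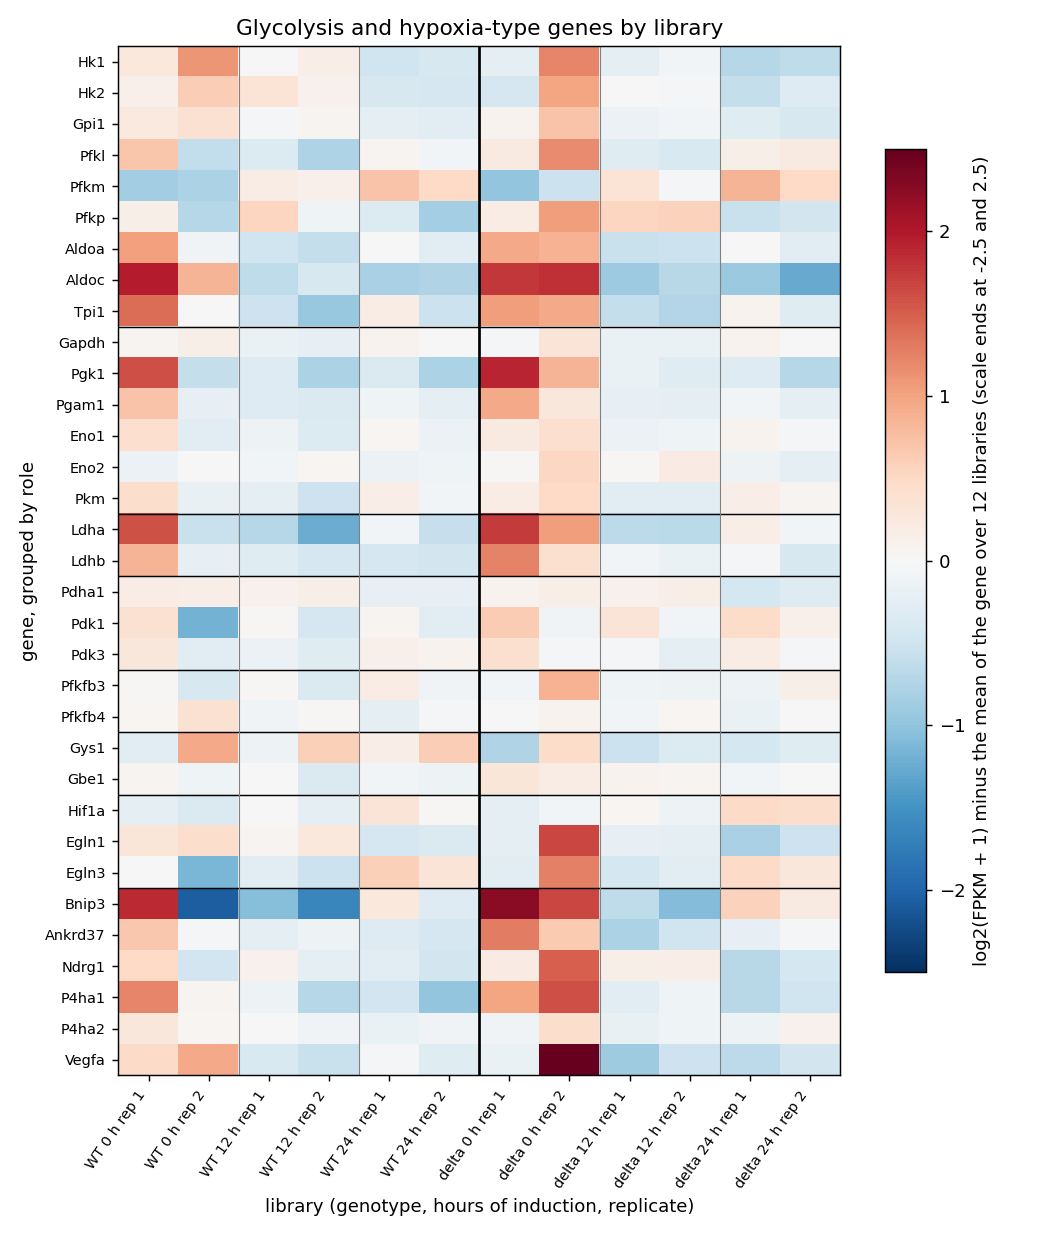
Each row is 1 of the 33 genes, grouped by role, and each column 1 of the 12 libraries; colour is log2(FPKM + 1) minus the gene's mean over the libraries. The 0 h libraries are the least alike, and WT 0 h replicate 2 is blue for Bnip3, Pgk1 and Ldha where the other 0 h libraries are red.

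After 2i and LIF were withdrawn, Aldoc fell and Pfkm rose in both genotypes and at both times. In WT cells 2 of 30 genes passed the test at 12 h, where 2.13% of all genes were called higher and 1.9% lower. The same 2 passed at 24 h, against 5.27% and 4.94%. In delta cells 5 passed at 12 h, against 3.55% and 3.45%, and 6 at 24 h, against 7.58% and 7.8%. Values are given as replicate 1 and then replicate 2 of each group, differences are on the log2(FPKM + 1) scale with the model's standard error, and calls are limma tests with Benjamini-Hochberg adjusted p under 0.05 over all 13981 genes.

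Aldoc, an aldolase better known from brain, was at 15.1 and 6.49 FPKM in WT at 0 h, 1.69 and 2.15 at 12 h, and 1.36 and 1.46 at 24 h. In delta it was at 13.1 and 13.6, then 1.20 and 1.58, then 1.17 and 0.735. All 4 libraries at 0 h lay above all 8 later ones. Aldoc fell by 1.92 ± 0.32 in WT by 12 h (limma adjusted p = 0.0113) and by 2.19 ± 0.32 by 24 h (adjusted p = 0.00277). In delta it fell by 2.59 ± 0.32 (adjusted p = 0.00229) and 2.88 ± 0.32 (adjusted p = 0.000508). The WT call at 12 h was lost without WT 12 h replicate 1 or replicate 2.

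Pfkm, the muscle-type phosphofructokinase of the committed step (chr15:98092589-98132451, plus strand, mm10), was at 11.3 and 12.0 FPKM in WT at 0 h, 24.8 and 23.5 at 12 h, and 36.0 and 31.0 at 24 h. In delta it was at 10.4 and 14.6, then 27.8 and 20.9, then 39.4 and 30.9. Every 0 h library lay below every later one, and every 24 h library above every 12 h one. Pfkm rose by 0.99 ± 0.22 in WT by 12 h (limma adjusted p = 0.0407) and by 1.44 ± 0.22 by 24 h (adjusted p = 0.00364). In delta it rose by 0.91 ± 0.22 (adjusted p = 0.0404) and 1.43 ± 0.22 (adjusted p = 0.00288). The 24 h calls held without each of the 12 libraries in turn. At 12 h the WT call held only without delta 0 h replicate 1 or 2, and the delta call only without WT 0 h replicate 1, WT 0 h replicate 2 or delta 0 h replicate 2.

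The other phosphofructokinases varied more between 0 h libraries. Pfkl, the liver type, was at 55.2 and 21.7 FPKM in WT at 0 h, 26.5 and 19.5 at 12 h and 35.4 and 32.1 at 24 h, and in delta at 39.9 and 78.0, 27.2 and 25.7, and 37.8 and 39.8. Pfkp, the platelet type, was at 28.8 and 15.5, 38.3 and 24.0, and 20.2 and 13.9 in WT, and at 29.4 and 54.8, 37.9 and 39.0, and 17.2 and 18.7 in delta. Neither passed the test in any single-genotype comparison. FPKM is per length, so isozymes may be set side by side: Pfkm made up 9.91 to 24.3% of summed phosphofructokinase FPKM at 0 h, 24.4 to 35.1% at 12 h and 34.6 to 41.7% at 24 h. Pfkp made up 30.2 to 37.2%, 35.8 to 45.6% and 18.0 to 22.0% at the same times. Pitrm1, on the opposite strand, overlaps Pfkp and was at 28.9 to 50.9 FPKM, so with the strand setting unknown the Pfkp level, and every share of the phosphofructokinase sum, may include its reads.

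**Figure D2:**
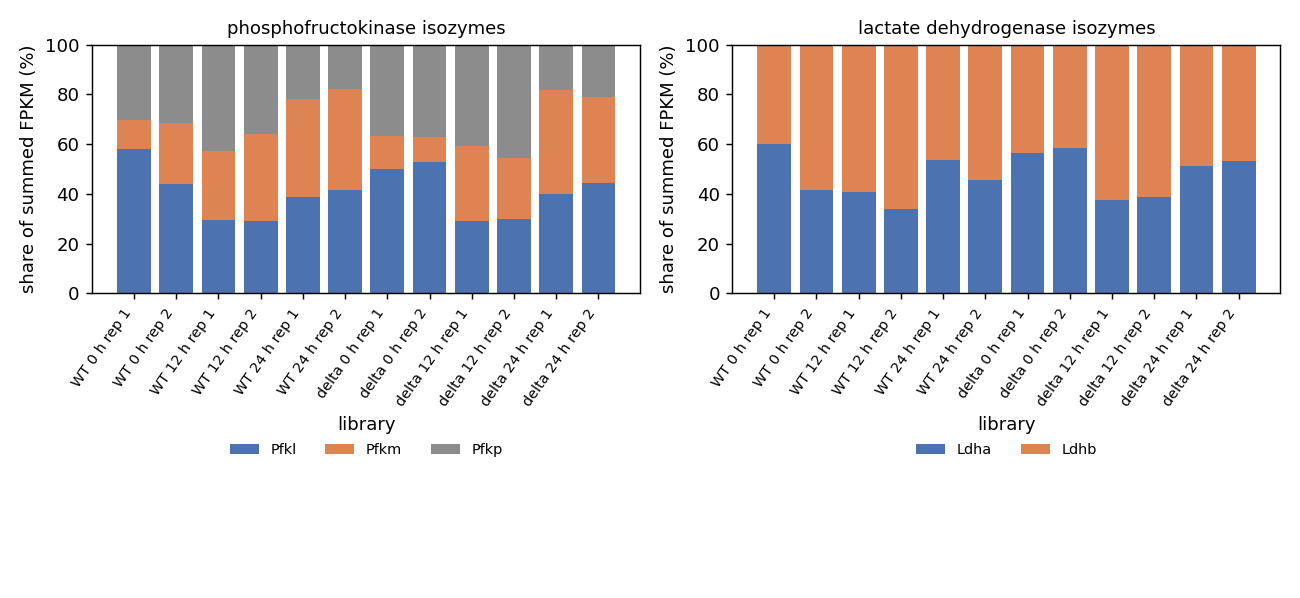
Stacked bars give each isozyme's share of the summed FPKM (%, y axis) in each of the 12 libraries (x axis) for phosphofructokinase and lactate dehydrogenase. The Pfkm share is lowest at 0 h (9.91 to 24.3%) and highest at 24 h (34.6 to 41.7%), while Ldha varies from 33.8 to 60.05% over all libraries.

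Aldoa, the main aldolase, was at 707 and 327 FPKM in WT at 0 h, 246 and 230 at 12 h and 349 and 285 at 24 h. In delta it was at 674 and 633, then 236 and 239, then 344 and 284, and it fell by 1.46 ± 0.33 by 12 h in delta (limma adjusted p = 0.0301). Aldoc was 1.90 to 2.11% of summed aldolase FPKM at 0 h and 0.259 to 0.926% later, so Aldoa supplied nearly all of it throughout. Tpi1, triose phosphate isomerase, was at 295 and 112.2 FPKM in WT at 0 h, 77.9 and 57.6 at 12 h and 128 and 77.4 at 24 h. In delta Tpi1 was at 233 and 216, then 73.5 and 66.9, then 119 and 90.8, and it fell by 1.66 ± 0.42 by 12 h (limma adjusted p = 0.0475). Both delta calls held only without WT 0 h replicate 1, WT 0 h replicate 2 or delta 0 h replicate 2.

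Gpi1, which interconverts the phosphates of glucose and fructose, was at 105 and 116 FPKM in WT at 0 h, 85.1 and 92.1 at 12 h and 74.7 and 72.4 at 24 h. In delta it was at 93.9 and 145, then 79.8 and 84.1, then 70.9 and 66.3, and it fell by 0.76 ± 0.21 by 24 h (limma adjusted p = 0.0433). The delta call held only without WT 0 h replicate 1, WT 0 h replicate 2 or delta 0 h replicate 1, and the similar gene Gm1840 was at 7.35 to 16.8 FPKM, so reads could be split between them. The hexokinases, which trap glucose in the cell, were highest in the 0 h libraries of replicate 2. Hk1 was at 14.1 and 25.9, 11.4 and 12.9, and 7.90 and 8.45 FPKM in WT, and at 9.60 and 28.2, 9.76 and 11.0, and 6.64 and 7.08 in delta. Hk2 was at 38.0 and 53.9, 44.4 and 37.3, and 26.2 and 25.8 in WT, and at 25.9 and 69.6, 34.6 and 33.9, and 22.8 and 27.5 in delta. Neither hexokinase was called in a single genotype.

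Of the later glycolytic enzymes none was called in a single genotype. Pgk1, which makes the first ATP of the payoff phase, was at 454 and 97.2 FPKM in WT at 0 h, 119 and 85.6 at 12 h and 115 and 85.8 at 24 h, and in delta at 555 and 269, 131 and 121, and 118 and 90.1. Ldha, the lactate dehydrogenase subunit induced by HIF, was at 738 and 167, 150 and 104, and 233 and 164 in WT, and at 830 and 505, 156 and 154, and 276 and 233 in delta. WT 0 h replicate 2 stood near the later libraries for both genes and the other 0 h libraries stood above them. Ldhb, the second subunit, was at 491 and 234, 218 and 204, and 201 and 196 in WT, and at 644 and 359, 259 and 242, and 263 and 205 in delta. Gapdh ranged from 506 to 731 FPKM, Pkm from 652 to 1322, Eno1 from 180 to 306 and Pgam1 from 87.0 to 215, and Eno2 stayed at or below 1.02. Gapdh and Eno1 have near-identical copies elsewhere in the genome, which makes their levels uncertain.

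At the entry to the mitochondria, Pdha1, the catalytic subunit of pyruvate dehydrogenase, lay between 114 and 122 FPKM at 0 and 12 h. It was at 122 and 120, 115 and 117, and 91.8 and 92.6 FPKM in WT, and at 114 and 119, 115 and 120, and 78.3 and 85.2 in delta. Its 24 h libraries lay below all others. Pdk1, a kinase that inhibits the complex, was at 32.7 and 10.5, 25.6 and 18.3, and 26.1 and 20.3 in WT, and at 39.5 and 23.6, 31.7 and 23.8, and 34.8 and 27.4 in delta. Pdk3 ranged from 9.66 to 16.4, Pfkfb3 from 0.487 to 2.58 and Pfkfb4 from 0.416 to 1.17. Of the glycogen enzymes, Gys1 ranged from 5.15 to 19.0 and Gbe1 from 0.618 to 1.56. Reads of Pdha1 may be shared with the overlapping gene Map3k15.

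Hif1a, the oxygen-regulated HIF subunit, was called higher in delta by 24 h. In WT it was not called, though its 24 h libraries lay above those at 0 h. It was at 20.5 and 18.8 FPKM in WT at 0 h, 24.2 and 20.4 at 12 h and 30.7 and 24.9 at 24 h. In delta it was at 20.3 and 23.1, then 25.3 and 22.4, then 34.3 and 33.5, and it rose by 0.62 ± 0.18 by 24 h (limma adjusted p = 0.0443). The delta call held only without WT 0 h replicate 1, WT 0 h replicate 2 or delta 0 h replicate 2. Egln1, the main oxygen-sensing hydroxylase, was at 4.10 and 4.65, 3.35 and 3.96, and 2.11 and 2.26 in WT, and at 2.57 and 12.3, 2.60 and 2.56, and 1.39 and 1.91 in delta. Egln3, itself a HIF target, ranged from 0.288 to 5.82.

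Among the other HIF targets, P4ha1 and Ankrd37 were called lower in delta. In WT neither was called, though for both genes the later WT libraries lay below those at 0 h. P4ha1, a collagen prolyl hydroxylase, was at 12.0 and 4.85, 4.14 and 2.41, and 2.998 and 1.84 FPKM in WT, and at 10.1 and 16.1, 3.69 and 4.18, and 2.48 and 2.95 in delta. It fell by 1.89 ± 0.39 in delta by 24 h (limma adjusted p = 0.012), a call lost without delta 24 h replicate 1 or 2. Ankrd37 was at 2.88 and 1.37, 1.07 and 1.21, and 0.946 and 0.817 in WT, and at 4.85 and 2.80, 0.400 and 0.724, and 1.11 and 1.38 in delta. It fell by 1.60 ± 0.28 in delta by 12 h (limma adjusted p = 0.0118), lost without delta 12 h replicate 1 or 2, and by 1.07 ± 0.28 by 24 h (adjusted p = 0.0344), held only without WT 0 h replicate 1, WT 0 h replicate 2 or delta 0 h replicate 2. Ankrd37 rests on 7 to 69 reads per library.

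Bnip3, a mitophagy receptor, differed most between replicates on the log2(FPKM + 1) scale. It was at 47.1 and 2.17 FPKM in WT at 0 h, 5.36 and 3.27 at 12 h and 14.96 and 9.54 at 24 h, and in delta at 62.0 and 41.1, 7.51 and 5.25, and 18.7 and 14.4. Each 24 h library lay above each 12 h library, while WT 0 h replicate 2 was the lowest of all 12. Vegfa, the angiogenic growth factor, was at 2.23 and 3.47, 0.790 and 0.583, and 1.25 and 0.883 in WT, and at 1.06 and 12.4, 0.262 and 0.625, and 0.484 and 0.685 in delta. Ndrg1 ranged from 1.02 to 8.19, with an antisense gene of higher level over it, and P4ha2 stayed at or below 0.776.

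**Figure D3:**
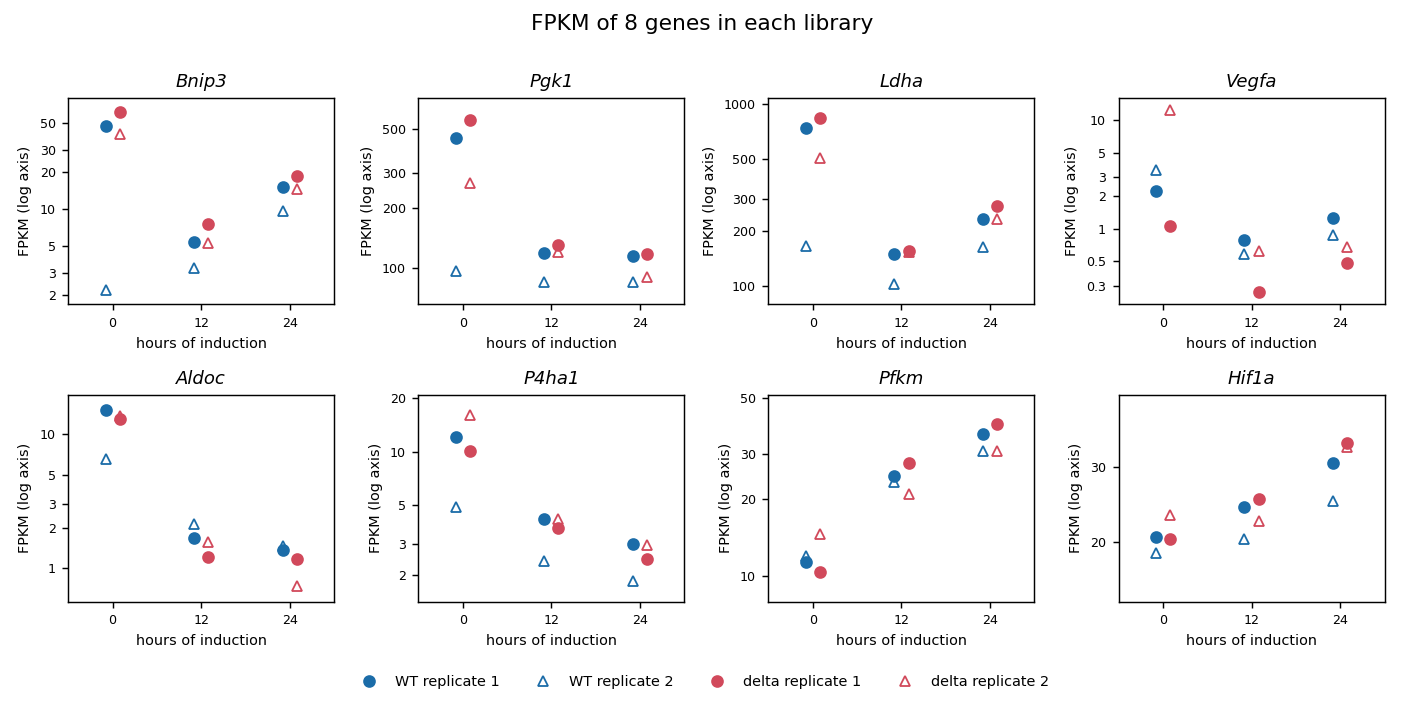
FPKM on a log axis against hours of induction for 8 genes, with 1 point per library (filled circles replicate 1, open triangles replicate 2). Aldoc is above all later libraries in the 4 libraries at 0 h and Pfkm below them, while Bnip3 at 0 h runs from 2.17 to 62.0 FPKM.

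Counts over the group must be read against the background. In WT at 12 h, 1 gene was called higher and 1 lower of 30, where 2.13% and 1.9% of all genes tested were called. In WT at 24 h the counts were again 1 and 1, against 5.27% and 4.94%. In delta at 12 h they were 1 higher and 4 lower, against 3.55% and 3.45%, and at 24 h 2 higher and 4 lower, against 7.58% and 7.8%. With the replicate number as a block, 2 were higher and 11 lower in delta at 24 h, against 10.4% and 10.9%, with Aldoa, Egln1, Hk1, Ldhb, Pdha1, Pgk1 and Tpi1 added. At 12 h the block made the delta counts 1 and 6 (5.92% and 5.56%), adding Ldha and P4ha1. In WT it added Tpi1 at 12 h (limma adjusted p = 0.0265, from 0.11), for 1 higher and 2 lower (3.67% and 3.4%), and P4ha1 at 24 h (adjusted p = 0.0453, from 0.0572), for 1 and 2 (7.72% and 7.23%). voom on recovered reads called 4 genes in delta at each time and 1 and 2 in WT. The share of all genes that it called is not given here, so these counts have no background. Calls that voom did not make were Pfkm in WT at 12 h, Tpi1 in delta at 12 h, and Gpi1 and Ankrd37 in delta at 24 h. The median change of the 30 genes was -0.31 and -0.38 in WT and -0.66 and -0.77 in delta at 12 and 24 h, where the median of all genes lay between -0.05 and -0.02. Groups did not overlap for 15 genes lower and 1 higher in WT at 12 h (background 25.8% and 22.2%), and for 10 lower and 3 higher at 24 h (27.4% and 24.3%). In delta this held for 19 lower and 1 higher at 12 h (24.3% and 24.4%) and for 21 lower and 2 higher at 24 h (26.7% and 24.8%).

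**Figure D4:**
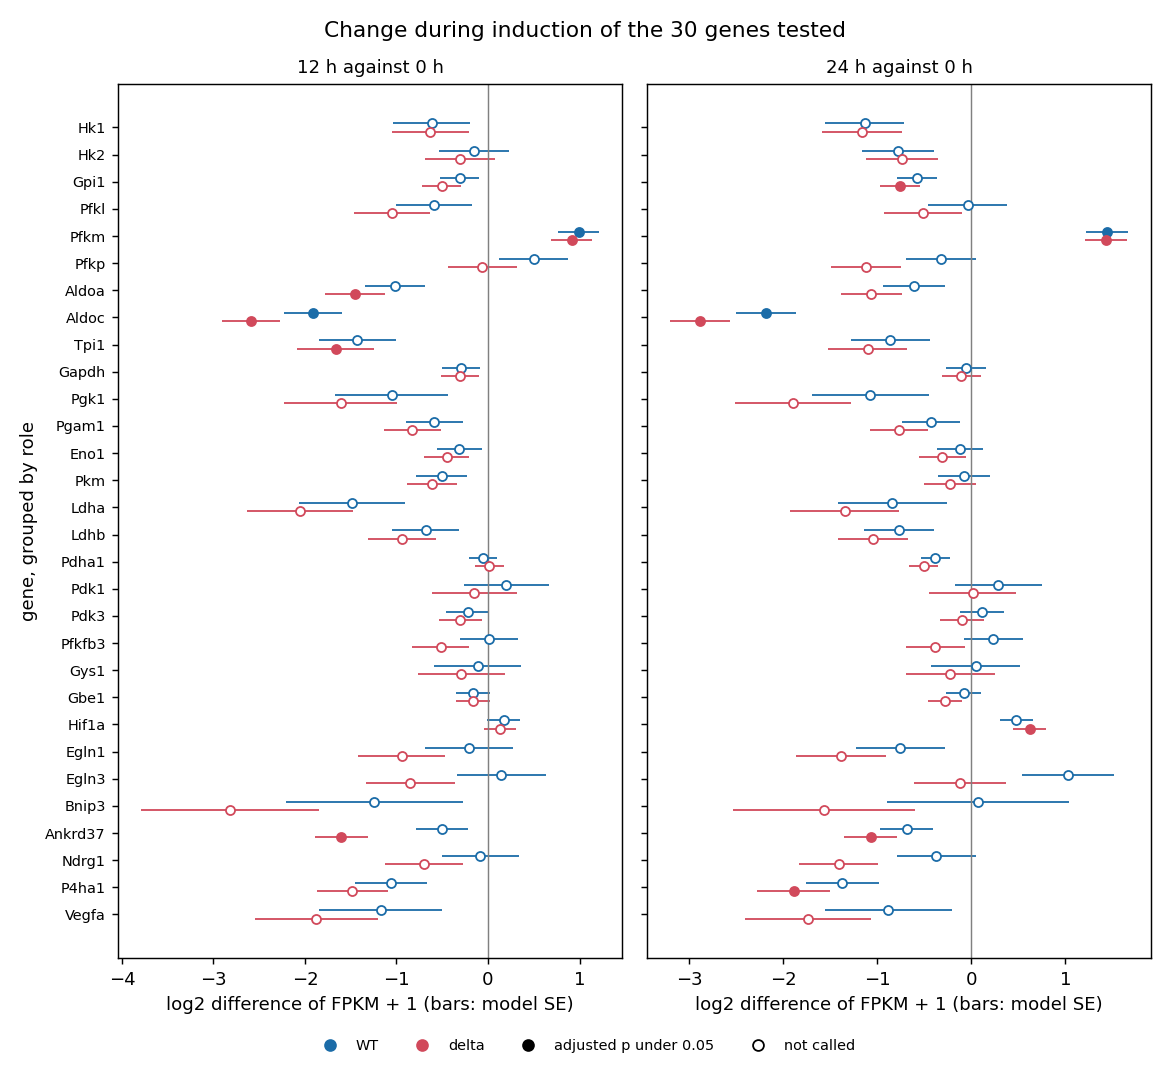
Change of each of the 30 genes tested from 0 h to 12 h and to 24 h, as log2 difference of FPKM + 1 (x axis, bars are the model's standard error), with WT in blue and delta in red and filled points called. Most points lie below 0, and Aldoc and Pfkm are filled in both genotypes at both times.

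Averaging the change over both genotypes, a comparison added after the data were seen, called 7 genes at 12 h and 13 at 24 h. At 12 h 1 was higher and 6 lower, against 8.71% and 8.57% of all genes, and the replicate block made this 1 and 12, against 13.4% and 13.6%. At 24 h 2 were higher and 11 lower, against 13.7% and 14.4%, and with the block 2 and 15, against 17.5% and 19.4%. Genes called here and in neither genotype alone were Ldha, which fell by 1.77 ± 0.41 by 12 h (limma adjusted p = 0.0189), and by 24 h Pgk1 (fell by 1.49 ± 0.44), Hk1 (1.15 ± 0.30 lower), Egln1, Ldhb and Pdha1. Pdha1 fell by 0.45 ± 0.11 (limma adjusted p = 0.0154). Egln1 was called in 2 of the 12 fits that left out 1 library, Ldhb in 4, Pgk1 in 5, Hk1 in 7, Pdha1 in 8 and Ldha in 9.

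Between 12 and 24 h no gene of the 30 was called in either genotype by limma, where 0.25% of all genes were called higher and 0.157% lower in WT, and 0.758% and 0.601% in delta. At an unadjusted p under 0.05 there were 0 in WT and 4 in delta, but the share of all genes at that threshold is not given here. Nor did voom on recovered reads give a call. A fit of those 8 libraries alone, added after the data were seen and averaged over genotypes, called 8 higher (Pfkl, Hif1a, Aldoa, Pkm, Pfkm, Egln3, Ldha and Bnip3) and 7 lower (Hk2, Ndrg1, Pfkp, Pdha1, Egln1, Gpi1 and Hk1), against 6.63% and 8.02% of all genes. In that fit Hk1 and Pdha1 were lower in delta alone, where 1.87% of all genes were called higher and 3.16% lower. Averaged over genotypes with all 12 libraries, no gene was called (2.2% of all genes were higher and 2.08% lower), and with the block Pdha1 was called lower (limma adjusted p = 0.0409, background 3.36% higher and 3.42% lower). Groups did not overlap for 9 genes higher (10.5% of all genes) and 7 lower (12.8%).

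Between genotypes no gene of the 30 was called at any time, or averaged over times, by limma or by voom on recovered reads. No difference between genotypes in the change over time passed the test either. All genes together gave 0.00715% called lower at 0 h, 0.0143% at 12 h and 0.00715% at 24 h, and 0.0% higher at each. Averaged over times 0.0143% were lower, and the tests of the change over time called 0.0%. At an unadjusted p under 0.05 there was 1 gene at 0 h (Pfkp), 0 at 12 h and 0 at 24 h, and 1 (Ankrd37) for the difference of the change to 12 h. The share of all genes at that threshold is not given here. The median difference of delta from WT was 0.38 at 0 h, 0.08 at 12 h and 0.04 at 24 h. At 0 h it was -0.12 between the replicate 1 libraries and 0.82 between the replicate 2 libraries, so the pairs differed in sign.

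The 0 h libraries themselves differed. WT 0 h replicate 2 was the lowest of the 4 for 21 of 30 genes, which 25.5% of all genes tested showed, and delta 0 h replicate 2 was the highest for 15 (27.1%). The median absolute difference between replicates was 0.84 for these genes in WT at 0 h and 0.42 for all genes, and 0.64 and 0.59 in delta at 0 h. At the later times it was 0.09 to 0.24 for these genes. On the FPKM scale the largest gaps were Bnip3 in WT, 21.7-fold higher in replicate 1, Vegfa in delta, 11.7-fold higher in replicate 2, Egln3 in WT, 6.43-fold higher in replicate 1, and Egln1 in delta, 4.79-fold higher in replicate 2. In WT at 0 h Pgk1, Ldha and Pdk1 were 4.67-, 4.42- and 3.11-fold higher in replicate 1. Without WT 0 h replicate 1 the WT median change at 24 h was 0.02, against -0.38 with all libraries.

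Genes of the same pathways were taken from 8 lists. Epas1, the HIF-2 alpha subunit, had the largest called change among them in a single genotype, with 1.45 and 2.34 FPKM in WT at 0 h, 18.0 and 14.4 at 12 h and 24.1 and 21.4 at 24 h, and in delta 1.24 and 2.34, 17.6 and 19.5, and 23.0 and 25.6. It rose by 3.05 in WT (limma adjusted p = 0.000164) and by 3.21 in delta by 24 h (adjusted p = 7.07e-05). Of the 10 tested HIF subunit and control genes it was the only one called in WT, and Vhl, which marks HIF for degradation, fell by 1.00 in delta by 24 h (limma adjusted p = 0.038), held in 3 of 12 fits that left out 1 library. Of 22 further HIF targets tested, 3 were higher and 2 lower in WT at 24 h, against 5.27% and 4.94% of all genes, and 2 and 2 in delta, against 7.58% and 7.8%. Cited2, a HIF feedback inhibitor, rose by 2.03 in WT by 24 h (limma adjusted p = 0.0014), and Ak4, a mitochondrial adenylate kinase, fell by 1.94 (adjusted p = 0.00274).

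Of 5 transport genes tested, Slc2a3, a glucose transporter, fell by 1.79 in WT (limma adjusted p = 0.0233) and by 2.46 in delta by 24 h (adjusted p = 0.00384). It was at 150 and 193 FPKM in WT at 0 h and 51.9 and 45.5 at 24 h. Slc16a3, a lactate exporter, was at 17.8 and 1.34, 6.54 and 2.41, and 73.0 and 37.3 in WT, and at 14.7 and 19.5, 11.2 and 5.39, and 85.6 and 52.8 in delta, and passed only when averaged over genotypes (2.47 by 24 h, limma adjusted p = 0.0148). Of 9 further isozymes and regulators tested, Tigar, a fructose bisphosphatase, fell by 1.85 in WT and 2.17 in delta by 24 h, and Eno3, the muscle enolase, rose by 1.77 and 1.67. Pdp2, the phosphatase that activates pyruvate dehydrogenase, fell by 1.41 in WT and 1.29 in delta by 24 h and was the only one of 10 pyruvate entry genes called in a single genotype. Pck2, of 5 gluconeogenesis genes tested, fell by 1.56 and 2.12, while Pcx rose by 1.01 in delta by 24 h (limma adjusted p = 0.0311, held in 7 of 12 fits that left out 1 library). Pgm1, of 6 glycogen genes, fell by 0.84 and 1.28. Without 1 library at a time the WT call at 24 h held in 8 of 12 fits for Slc2a3, 10 for Pck2 and 4 for Pgm1. None of the 8 pentose phosphate genes was called in either genotype alone, where between 1.9% (WT, 12 h, lower) and 7.8% (delta, 24 h, lower) of all genes were called in a direction.

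**Figure D5:**
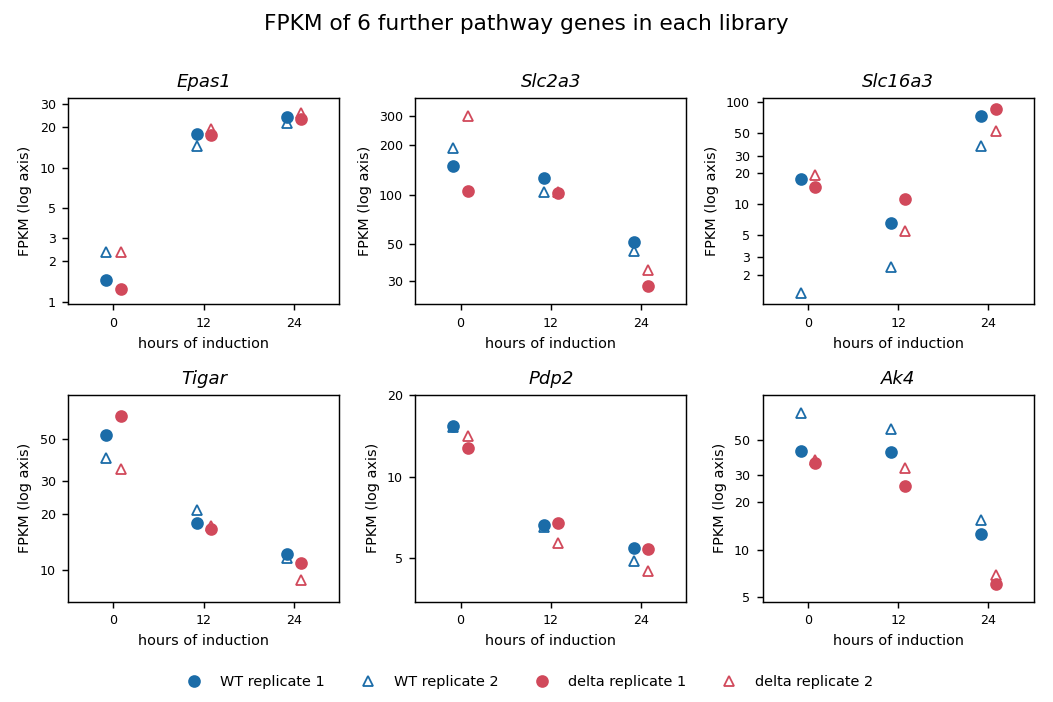
FPKM on a log axis against hours of induction for 6 further pathway genes, 1 point per library. Epas1 runs from 1.24 to 2.34 at 0 h to between 21.4 and 25.6 at 24 h, and Slc2a3, Tigar, Pdp2 and Ak4 are lowest at 24 h.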

How the data were processed

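RNA-seq of 12 libraries was taken from the FPKM table the authors deposited. The submitters' processing notes name cutadapt, STAR 2.5.2b, featureCounts 1.5.1, edgeR 3.16.5 and the build mm10, and the strand setting of read counting was not given in the sources used here. FPKM steps were whole reads within 0.01 for all 28657 genes above 0, 22964 with annotated lengths and 5693 with lengths found from the steps. limma 3.58.1 (R 4.3.3) was fitted to log2(FPKM + 1) over 6 groups with a trended prior, for genes at 1 FPKM or more in at least 2 libraries, with Benjamini-Hochberg adjustment over 13981 genes and a threshold of 0.05. It was also run on simulated data with the same spread set for all groups, whereas the 0 h replicates here differed more than the later ones. The outcome of that run is not given here. Genes with full values were those called, both of an isozyme pair, Hif1a and the 6 largest replicate gaps on the log2 scale; pathway genes named were called ones, and Slc16a3 was chosen after its values were seen. The genes and lists were chosen with earlier results of these data known. Samples with the same replicate number deviated together (correlation of their deviations 0.26 to 0.70 for compared groups). Differences between libraries of the same number were therefore formed as well. The main fit had no replicate block, so its p-values leave this pairing out, and a fit with the block was an alternative. Similar genes were found with blastn 2.17.0 (95% identity over 300 bases). Alternatives were quantile normalization, a pseudocount of 0.1, no filter, 5 FPKM in 2 libraries, the block, voom on recovered reads and leaving out each library.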

Additional observations from a re-analysis of the deposited data

Results flagged for a closer look

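For 3 genes both pairs of WT libraries moved one way and both pairs of delta libraries the other over the same interval. The share of all genes that did so is not given here, so this count has no background. Levels were low for Pfkfb3 (0.487 to 2.58 FPKM) and Ankrd37 (0.400 to 4.85 FPKM). Pdha1 differed by 0.071 ± 0.22 on the log2 scale in its change to 12 h (delta minus WT, limma adjusted p = 1.0), and Pfkfb3 by -0.62 ± 0.45 in its change to 24 h (adjusted p = 1.0). Neither difference passed the test. The mean log2 difference of Ankrd37 between 12 and 24 h was -0.19 in WT and 0.53 in delta, and the gap of 0.71 between these was not tested.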

How the results depend on the processing

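Of 695 refits of the 35 called gene and comparison pairs, 541 kept their call, 154 lost it and 0 reversed. Without the low-value filter the called genes numbered 1 in WT at 12 h, 2 in delta at 12 h and, over both genotypes, 8 at 24 h and 1 between 12 and 24 h, with medians of 0.0876 (WT, 24 against 12 h) and -0.60 (both, 24 h). At 5 FPKM in 2 libraries the WT 12 h median was -0.51. voom on recovered reads called 1 in WT at 12 h and 7 over both at 24 h, with medians of 0.21 (WT, 24 against 12 h), -0.33 and -0.45 (both, 12 and 24 h). For the no-filter and voom counts the share of all genes called is not given here, so they have no background. Quantile normalization gave medians of 0.15 (WT, 24 against 12 h) and -0.38 (both, 24 h), and a pseudocount of 0.1 gave 0.17 (WT, 24 against 12 h). With the replicate block, from the pairing of libraries, 13 were called in delta at 24 h, 13 over both at 12 h and 1 between 12 and 24 h; it moved no other count by over 1.5 times. Settings chosen after seeing the data follow. A group left with 1 library has to be assumed to vary like the other groups. Counts of called genes from fits with such a group rest on that assumption, and nothing is concluded from them. For the fits without both 0 h libraries of a replicate, the share of all genes called is not given here, so their counts have no background. Leaving out both 0 h libraries of replicate 1 called 4 and 11 (WT, 12 and 24 h), 21 and 21 (delta), 18 (both, 12 h), 2 (delta, 24 against 12 h) and 15 (both, 24 against 12 h), with medians of -0.135 and 0.0189 (WT) and -0.44 (both, 24 h). Leaving out those of replicate 2 called 16 and 19 (WT), 13 and 17 (delta), 18 and 22 (both), 2 and 15 (24 against 12 h), with medians of -0.57 and -0.66 (WT) and -0.50 (both, 24 h). The 12 and 24 h libraries alone called 2 in delta and 15 over both between 12 and 24 h. Without 1 library at a time, called genes ran from 0 to 6 and 2 to 8 (WT, 12 and 24 h), 1 to 9 and 2 to 13 (delta), 5 to 15 and 6 to 17 (both) and 0 to 3 (both, 24 against 12 h). Medians ran from -0.57 to -0.135 and -0.66 to 0.0189 (WT), 0.0572 to 0.25 (WT, 24 against 12 h), 0.0865 to 0.139 (delta, 24 against 12 h), -0.0852 to 0.115 (delta against WT at 24 h), -0.62 to -0.30 and -0.73 to -0.47 (both) and 0.11 to 0.20 (both, 24 against 12 h). The cause was not tested. In the fits without 1 library at a time, the share of all genes called is not given here, so those counts have no background.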
